A study of Mus musculus with 15 samples.

Results

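The 38 genes described here encode parts of the machinery with which a cell copies its DNA and divides. They were taken as a list of symbols by function, by a rule that used no measured value, although the list was drawn up with earlier results of these data known. All 38 were found among the 24015 genes of the count table and among the 15288 that passed a filter on low counts. RNA had been sequenced from inguinal white adipose tissue, the fat pad under the skin of the groin, in C57BL/6 mice that were 2 months (young) or 12 months (aged) old. All mice had first spent 2 weeks at thermoneutrality, a housing temperature at which no extra heat has to be made, and were then injected intraperitoneally for 5 days. Young_Ctrl (n = 4) and Old_Ctrl (n = 3) received vehicle, and Young_CL (n = 4) and Old_CL (n = 4) received CL. Replicate 2 of Old_Ctrl was not analysed here. The submitters write CL out as cardiolipin, although the same letters commonly stand for a β-adrenergic agonist, so the compound is given here only as CL. Nothing in the labels states that the libraries came from different animals, and the p-values therefore cover only the variation among these samples.

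A cell that commits to division passes from G1 into S phase when cyclin E with its kinase partner releases E2F transcription factors, among them E2F1. E2F factors switch on the genes that license origins, unwind and copy DNA and supply its building blocks. Later, FOXM1 and the MuvB complex switch on the genes of mitosis, which build the spindle, attach chromosomes to it and then destroy the mitotic cyclins. In white fat the mature adipocyte does not divide, and dividing cells are found among adipocyte progenitors, immune cells and blood vessel cells, as well as in the lymph node that lies within the inguinal pad.

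Replication and mitotic members also differed in promoter DNA, where the members' start sites can be compared with those of other genes. RefSeq windows of 300 bases (250 before the start of transcription and 50 after it, assembly GRCm38.p6) were matched for 31 of the 38 members. Those of Ccne2, Foxm1, Mcm4, Gins2, Ccna2, Aurkb and Tpx2 were not matched. In each window 3 short motifs were searched on both strands: the CHR element TTTGAA, through which MuvB complexes act, the CCAAT box CCAAT, bound by NF-Y, and an E2F site written as TTCCCGC or TTGGCGC. The last of these, read on the other strand, contains the letters CCAA and so can overlap a CCAAT box. The CHR letters stood in 12 of 17 windows of mitotic, checkpoint and mitotic exit members (70.6%), in 2 of 9 windows of replication members (22.2%) and in 15.7% of 16775 windows of all genes in the count table. The E2F letters had the opposite split, with 6 of 9 replication members (66.7%), 4 of 17 mitotic, checkpoint and mitotic exit members (23.5%) and 9.03% of all windows. The checkpoint gene Chek1 was among those 4. Of the G1/S and nucleotide supply members with a window, Rrm1 had E2F letters and Ccne1, E2f1, Rrm2 and Tyms had none. CCAAT letters were in 24 of 31 members (77.4%) and in 38.9% of all windows. A match is a description of the letters and not a measured binding site.

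The stretches from 220 bases before to 30 bases after the start are shown for 3 mitotic members and 1 replication member whose expression is described further on, with every match to the 3 motifs, in either direction, in capitals. All lie on the minus strand and are written 5′ to 3′ in the direction of transcription. Mki67 is at chr7:135716350-135716599, Cdc20 at chr4:118437314-118437563, Ccnb2 at chr9:70421525-70421774 and Mcm6 at chr1:128359676-128359925.
Mki67: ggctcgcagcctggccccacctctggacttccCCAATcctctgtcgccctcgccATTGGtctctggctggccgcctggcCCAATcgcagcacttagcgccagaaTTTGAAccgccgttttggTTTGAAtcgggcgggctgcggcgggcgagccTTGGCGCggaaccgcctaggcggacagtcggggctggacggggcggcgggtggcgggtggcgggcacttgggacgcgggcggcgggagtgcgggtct
Cdc20: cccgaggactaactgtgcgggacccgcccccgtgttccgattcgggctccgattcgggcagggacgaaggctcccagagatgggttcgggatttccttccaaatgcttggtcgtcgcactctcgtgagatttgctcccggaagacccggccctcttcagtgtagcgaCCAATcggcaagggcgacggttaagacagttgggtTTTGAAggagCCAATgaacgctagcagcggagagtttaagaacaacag
Ccnb2: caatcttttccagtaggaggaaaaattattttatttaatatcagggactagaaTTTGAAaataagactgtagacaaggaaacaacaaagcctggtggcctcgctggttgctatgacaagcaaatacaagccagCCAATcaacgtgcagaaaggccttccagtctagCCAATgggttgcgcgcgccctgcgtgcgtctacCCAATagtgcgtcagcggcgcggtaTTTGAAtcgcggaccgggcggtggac
Mcm6: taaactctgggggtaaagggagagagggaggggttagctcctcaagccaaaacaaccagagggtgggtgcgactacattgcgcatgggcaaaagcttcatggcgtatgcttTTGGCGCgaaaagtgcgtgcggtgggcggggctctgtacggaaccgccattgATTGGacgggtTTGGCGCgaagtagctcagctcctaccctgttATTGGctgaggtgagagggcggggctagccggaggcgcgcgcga
Mki67, Cdc20 and Ccnb2 each carry CHR letters together with CCAAT boxes, and Mki67 has an E2F site as well. Mcm6 carries a pair of E2F sites and a pair of CCAAT boxes and no CHR letters in this stretch.

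Library totals ran from 6115542 to 51577001 counts, so that 3 counts stood at 0.0538 to 0.497 CPM (counts of a gene relative to its library's total, scaled by TMM factors). The members had between 10 counts (Chek1 in Young_Ctrl 2) and 2634 counts (Pcna in Old_Ctrl 3) in a library. Ucp1, the heat-producing proton carrier of beige fat used here as a check of treatment, rose from 12.97 ± 8.999 to 411 ± 132 CPM in young mice and from 2.76 ± 1.34 to 68.5 ± 17.5 CPM in aged mice (mean ± SD). The summed level of 8 adipocyte markers was 8111 to 51025 CPM over the libraries, and that of 9 epithelial markers was 3.50 to 21.4 CPM, with Krt14 and Krt5 at 0 in all Young_Ctrl libraries. Skeletal muscle transcripts summed to 2332 to 6972 CPM in 5 libraries (Young_CL 1, 2 and 3, Old_Ctrl 3 and Old_CL 3) and to 31.6 to 332 CPM in the other libraries. Old_CL 1, 2 and 4 resembled each other closely, with a robust SD of log2 ratios of 0.0636 to 0.0933 for their pairs and at least 0.116 for every other pair within a group. Their counts still differed by more than sampling noise (chi-square per degree of freedom 2.69 to 4.99), and they were kept as 3 samples. Counts of members that passed are also given with the 3 summed where Old_CL enters the comparison.

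Proliferation genes were lowest in aged mice given CL. The mean log2 CPM of the 38 genes was 3.46 ± 0.17 in Young_Ctrl, 3.64 ± 0.08 in Young_CL, 3.33 ± 0.22 in Old_Ctrl and 2.85 ± 0.14 in Old_CL (SD over libraries). The Old_CL libraries lay between 2.77 and 3.06, below the lowest library of the other groups, Old_Ctrl 3 at 3.09. Young_Ctrl overlapped both Young_CL and Old_Ctrl, while every Young_CL library lay above every Old_Ctrl library. In fat measured as a whole, fewer dividing cells, less of these transcripts per cell and a larger share of RNA from other cells cannot be told apart.

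**Figure D1:**
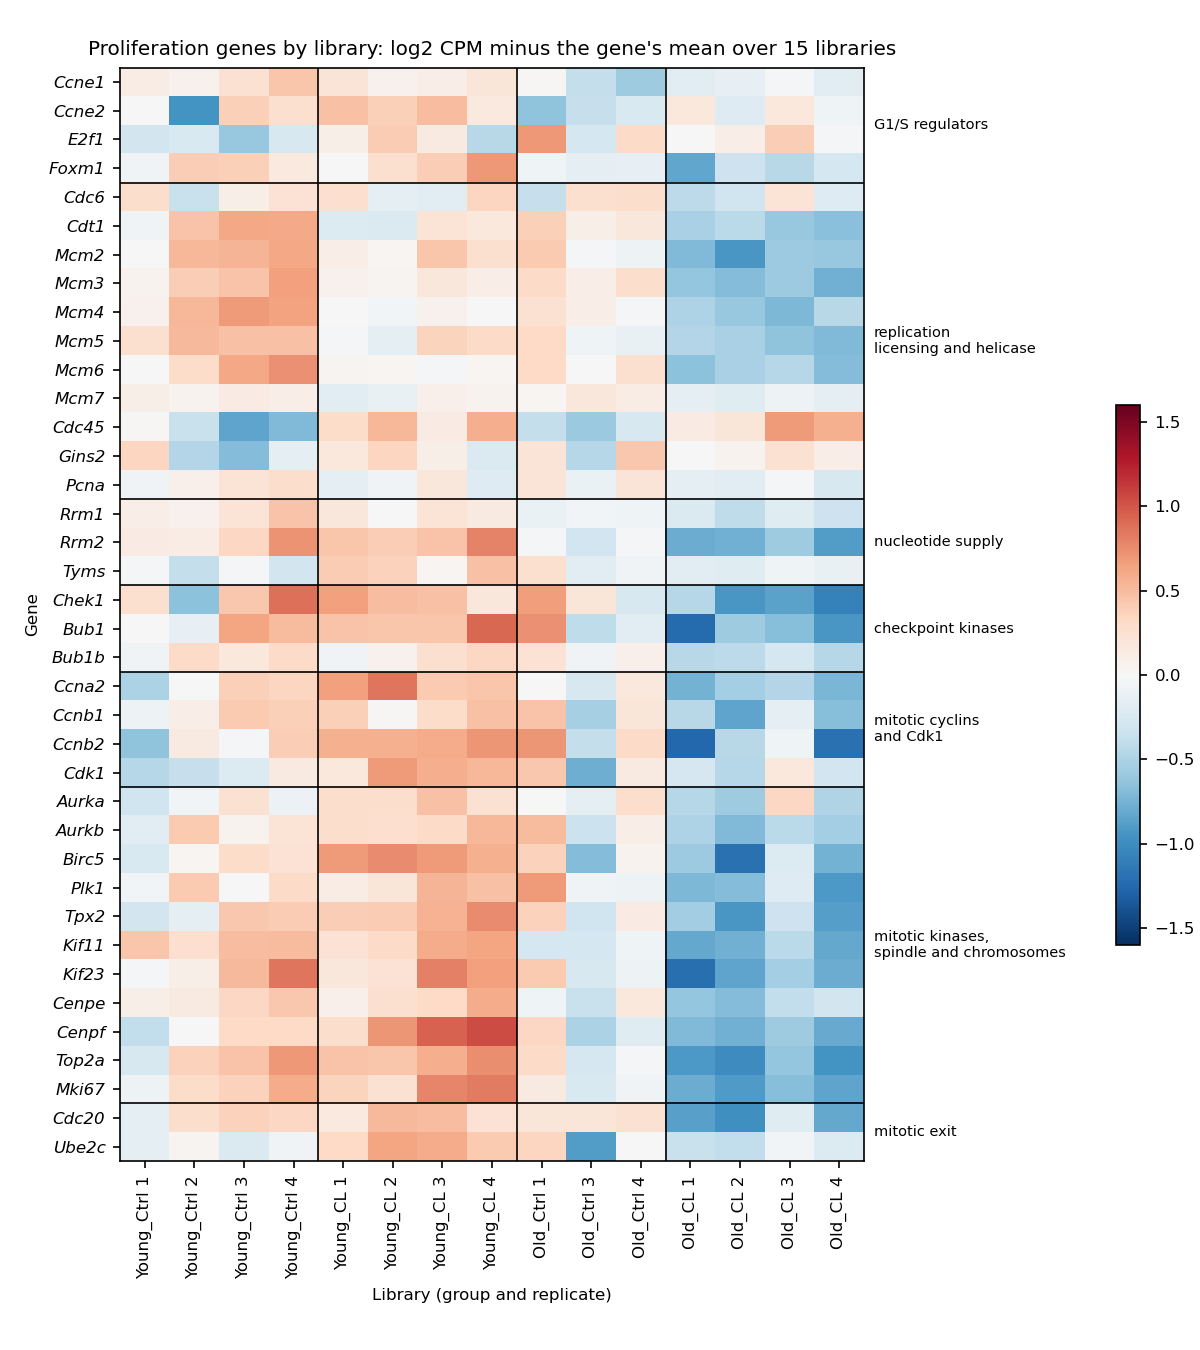
Log2 CPM of each of the 38 genes (rows, grouped by role) in each of the 15 libraries (columns, grouped by age and treatment), as the difference from that gene's own mean over all libraries; red is above and blue below the mean. The Old_CL columns are blue for most rows, while Cdc45 is above its mean in all 4 of them, and each of the 17 mitotic rows is above its mean in all 4 Young_CL columns.

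In aged mice, the comparison of CL with vehicle asks how 5 days of treatment left these genes in older fat. Of the 38 members, 21 fell and 1 rose (Benjamini-Hochberg adjusted p under 0.05 over all 15288 tested genes, edgeR's quasi-likelihood test), beside 45.2% of all tested genes that passed, 22.2% lower and 23.1% higher. The median log2 change was -0.57, and that of all tested genes was -0.01. The fallen genes came from every role except the G1/S regulators: 7 of 11 replication licensing and helicase genes, 1 of 3 nucleotide supply genes, 3 of 3 checkpoint kinases, 2 of 4 mitotic cyclin and Cdk1 genes, 7 of 11 mitotic kinase, spindle and chromosome genes, and 1 of 2 mitotic exit genes. The libraries of the groups did not overlap for 23 members with Old_CL lower and 2 with Old_CL higher, beside 52.8% of all tested genes, 25.0% lower and 27.9% higher. Cdc45, a subunit of the active replicative helicase, was the member that rose, from 7.51 ± 0.876 to 13.3 ± 2.54 CPM (log2 change 0.84, SE 0.20, adjusted p = 0.0036). With Old_CL 1, 2 and 4 summed, 11 members were lower and 1 higher. With the B cell and lymph node level of each library as a covariate, 12 were lower and 0 higher, where edgeR gave 2 higher at an unadjusted p under 0.05. The counts over all tested genes in these fits are not given here.

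In young mice, the same treatment was followed by calls in both directions. Of the 38 members, 7 rose (18.4%) and 4 fell (10.5%), so that 28.9% passed. This is less than the 43.9% of all tested genes that passed, 21.7% higher and 22.1% lower. The median log2 change was 0.13 (all tested genes -0.07). The risers were Cdc45, Tyms, Ccna2, Cdk1, Birc5, Cenpf and Ube2c, 5 of which act in mitosis or its entry and exit. These 5 were 2 of 4 mitotic cyclin and Cdk1 genes, 2 of 11 mitotic kinase, spindle and chromosome genes and 1 of 2 mitotic exit genes. The 4 that fell were all licensing genes: Cdt1, which loads the helicase onto origins, and Mcm3, Mcm4 and Mcm6, subunits of that helicase. Libraries did not overlap for 8 members that were higher after CL and 1 that was lower, Mcm4, beside 34.1% of all tested genes, 18.0% higher and 16.1% lower. The number that passed was 5 without Young_Ctrl 3 or without Young_CL 2, 6 without Young_Ctrl 4 and 7 without Young_Ctrl 2 or without Young_CL 1. It was 2 without the muscle-rich libraries, which leaves 1 Young_CL library that is assumed to vary like the others, and 0 with the B cell and lymph node covariate, where edgeR gave 3 higher and 0 lower at an unadjusted p under 0.05. With that covariate fewer of all tested genes passed as well, as given further on. Mcm4, Cdc45 and Tyms kept their calls when any 1 of the 15 libraries was left out. The split of calls depended on the scaling: upper-quartile factors gave 5 higher and 7 lower, and limma-voom gave 5 and 5, while DESeq2 gave 7 and 5.

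**Figure D2:**
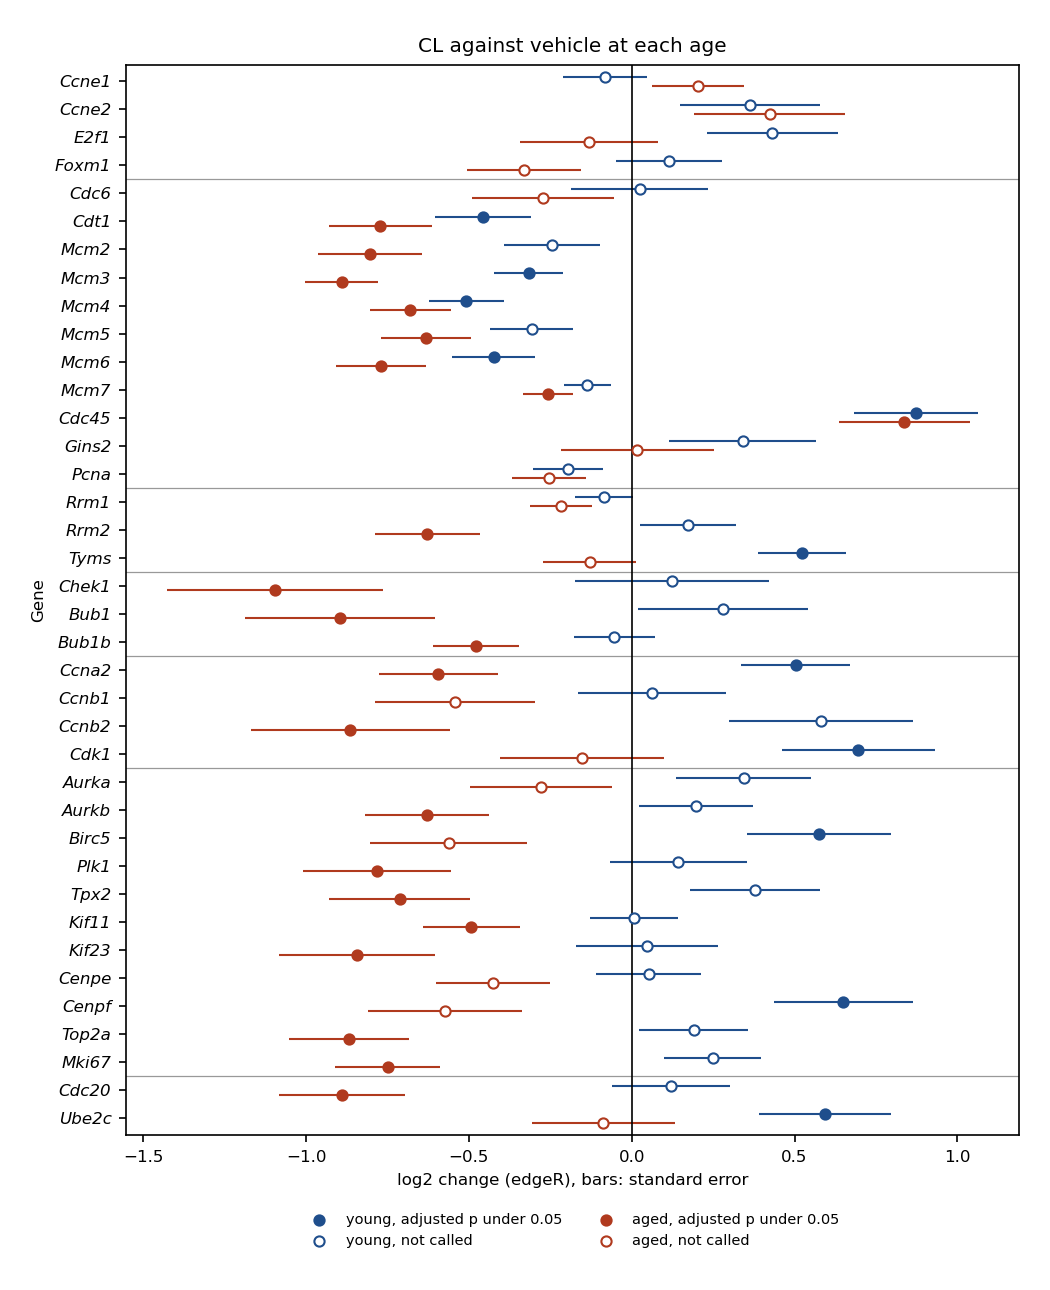
Log2 change of each gene with CL against vehicle in young (blue) and aged (red) mice, with bars for 1 standard error and filled points for adjusted p under 0.05 (edgeR). All 17 mitotic rows lie right of 0 in young mice (with upper-quartile scaling Ccnb1, Kif11, Kif23 and Cenpe change sign) and left of 0 in aged mice, MCM rows lie left of 0 at both ages, and Cdc45 lies right of 0 at both.

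The CL comparisons of young and of aged mice share no libraries, so their calls can be set side by side. Cdt1, Mcm3, Mcm4 and Mcm6 fell at both ages, 4 of 38 members beside 11.3% of all tested genes. Cdc45 rose at both, 1 of 38 beside 14.5%. Ccna2 was the member that rose in young mice and fell in aged mice, a pattern found in 25 of 15288 tested genes (0.164%). Birc5, Cdk1, Cenpf, Tyms and Ube2c rose in young mice and did not pass in aged mice, 5 of 38 beside 7.06% of all tested genes. In aged mice 16 of 38 fell without passing in young mice, beside 10.7% of all tested genes. No call was made at either age for 11 members, beside 37.5% of all tested genes: Ccne1, Ccne2, E2f1, Foxm1, Cdc6, Gins2, Pcna, Rrm1, Ccnb1, Aurka and Cenpe.

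The age by CL interaction tests whether the response to CL differed between the ages, and is the aged log2 change minus the young one. It passed for 10 members, all with the lower value in aged mice: Mcm3, Rrm2, Ccna2, Ccnb2, Birc5, Tpx2, Cenpf, Top2a, Mki67 and Cdc20. Among all tested genes 7.08% passed, 3.77% lower and 3.31% higher. In the other direction 0 passed, with 0 at an unadjusted p under 0.05 in edgeR and DESeq2 and 1 in limma-voom. DESeq2 passed 12 members and limma-voom 5, all lower. The median interaction of the 38 members was -0.59 (all tested genes -0.02). Mki67, which encodes the nuclear protein Ki-67 used to mark cycling cells, kept its call when any 1 library was left out. The number that passed was 1 without Old_Ctrl 4, 2 without Old_Ctrl 1 or Old_CL 2, 3 without Young_Ctrl 2, Young_CL 2, Old_CL 1 or Old_CL 4, 4 without Young_CL 3, 5 without Young_CL 1 and 6 without Young_Ctrl 3. It was 1 without the muscle-rich libraries, 0 with Old_CL 1, 2 and 4 summed (edgeR gave 16 lower at an unadjusted p under 0.05) and 8 with the B cell and lymph node covariate.

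Under vehicle, aged and young fat differed in few of these genes. E2f1 was higher in aged mice and 6 members were lower, namely Ccne1, Kif11, Rrm2, Mcm4, Mcm5 and Rrm1, beside 27.2% of all tested genes that passed, 15.1% higher and 12.2% lower. The median was -0.19 (all tested genes 0.03), and libraries did not overlap for 5 members, all lower, beside 27.1% of all tested genes, 14.0% higher and 13.1% lower. The largest of these differences was in Kif11, the motor that pushes spindle poles apart, at 9.93 ± 0.745 CPM in Young_Ctrl and 6.34 ± 0.545 CPM in Old_Ctrl (log2 change -0.64, SE 0.15, adjusted p = 0.0065). It was the member whose call was kept when any 1 library was left out. The count of members that passed was 13 without Young_Ctrl 1, 2 without Young_Ctrl 3 or Young_Ctrl 4, 3 without Old_Ctrl 3 and 1 without Old_Ctrl 4. It was 2 without the muscle-rich libraries, 3 with Old_CL 1, 2 and 4 summed, 1 with the 2 groups fitted alone and 0 with the B cell and lymph node covariate, where edgeR gave 1 lower at an unadjusted p under 0.05. In the covariate fit far fewer of all tested genes passed as well, as given further on. With RLE or upper-quartile factors 0 members were higher and 6 lower.

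Under CL, the age difference took in most of the list. Of 38 members 30 were lower in aged mice and 0 were higher, beside 40.0% of all tested genes that passed, 19.4% lower and 20.5% higher. DESeq2 gave 30 lower and limma-voom 29, and none of the 3 tools had a higher member at an unadjusted p under 0.05. The median log2 difference was -0.78 (all tested genes -0.01), and 29 members, all lower, had no overlap between the libraries, beside 44.9% of all tested genes, 21.4% lower and 23.5% higher. Every member of the nucleotide supply, checkpoint, mitotic cyclin, mitotic spindle and mitotic exit roles was lower. The 8 members that did not pass were 3 G1/S regulators (Ccne1, Ccne2 and E2f1) and 5 replication genes (Cdc6, Mcm7, Cdc45, Gins2 and Pcna). When any 1 library was left out 28 of the 30 calls were kept; Cdk1 lost its call without Young_CL 2, Old_CL 1, Old_CL 2 or Old_CL 4 (-0.85 to -0.62), and Aurka when any 1 of 10 libraries was left out (-0.83 to -0.45). With Old_CL 1, 2 and 4 summed 25 passed, and with the B cell and lymph node covariate 11, all lower. In both fits fewer of all tested genes passed as well, as given further on.

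**Figure D3:**
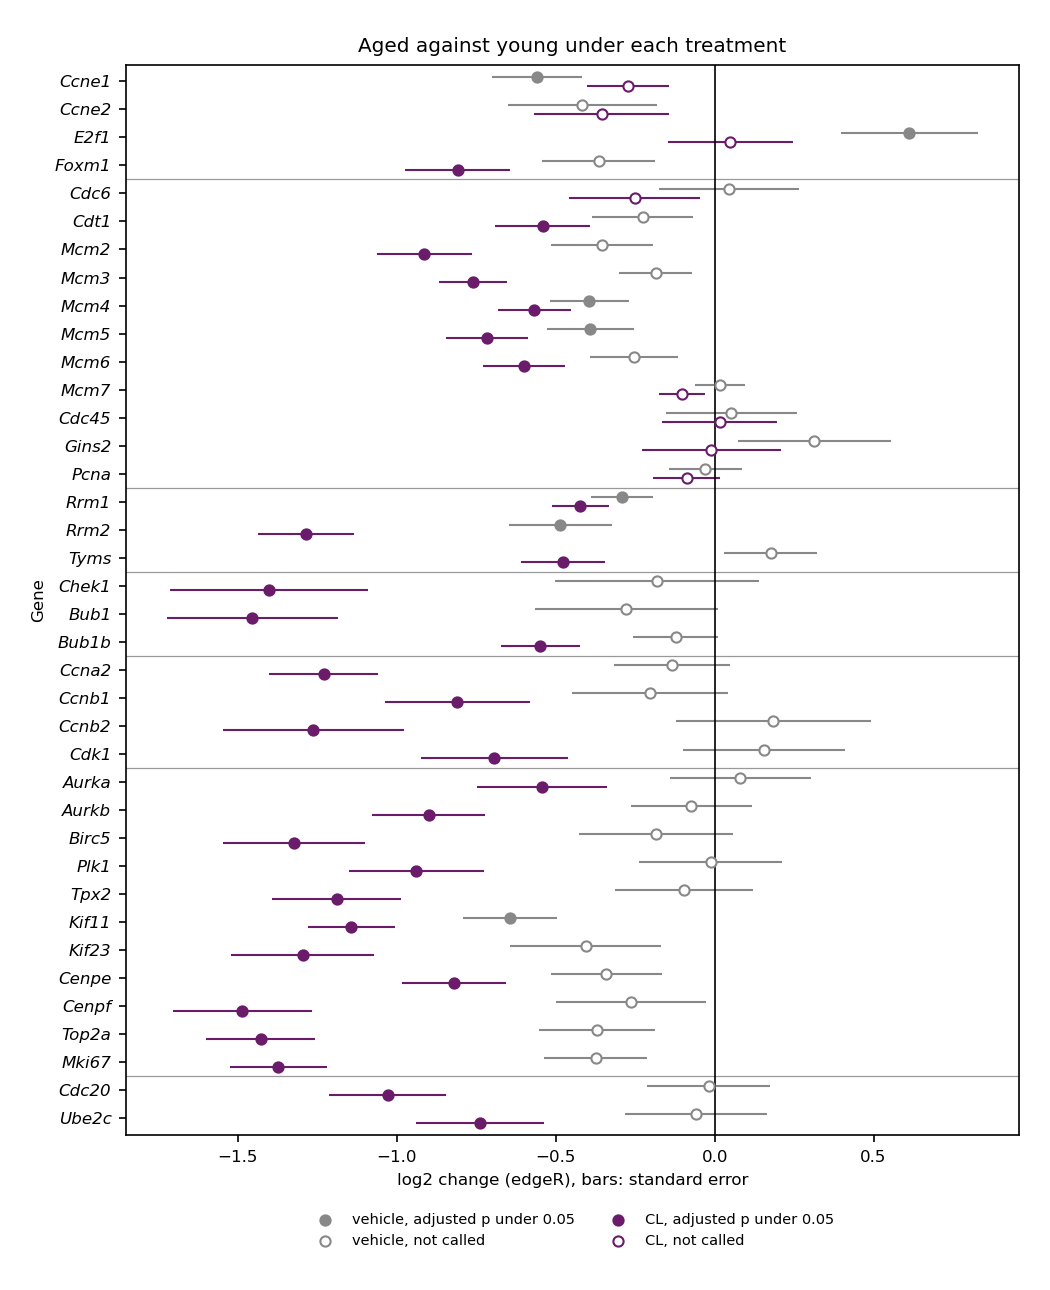
Log2 difference of each gene, aged against young, under vehicle (grey) and under CL (purple), with bars for 1 standard error and filled points for adjusted p under 0.05 (edgeR). Under CL all mitotic rows are filled and left of 0, down to -1.49 for Cenpf, while under vehicle most rows are open.

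Among the G1/S regulators, E2f1 encodes the transcription factor that starts S phase gene expression. Its groups overlapped wherever they were compared, while Young_Ctrl and Old_CL, which were not compared, did not overlap. Its level was 12.9, 13.3, 10.3 and 13.2 CPM in Young_Ctrl 1 to 4, 16.9, 21.0, 17.4 and 11.6 CPM in Young_CL 1 to 4, 25.7, 13.0 and 19.5 CPM in Old_Ctrl 1, 3 and 4, and 15.7, 17.0, 20.8 and 15.6 CPM in Old_CL 1 to 4. The lowest library was a young vehicle one and the highest an aged vehicle one; libraries of the groups overlapped in all 4 comparisons of a pair of groups. Age under vehicle gave log2 change 0.61, SE 0.22, adjusted p = 0.046, a call that was lost when any 1 of 10 libraries was left out (0.38 to 0.85) and with RLE or upper-quartile factors. Foxm1, the activator of mitotic genes, stood at 7.10, 9.80, 9.70 and 8.29 CPM in Young_Ctrl, 7.48, 8.92, 9.78 and 12.0 CPM in Young_CL, 7.06, 6.63 and 6.80 CPM in Old_Ctrl and 4.14, 5.89, 5.44 and 6.12 CPM in Old_CL. Every Old_CL library was below every other library. Its difference between ages under CL passed (log2 change -0.81, SE 0.16, adjusted p = 0.0013), while CL against vehicle in aged mice did not (log2 change -0.33, SE 0.18, adjusted p = 0.14). Ccne1, one of the cyclins that open S phase, was lower in aged mice under vehicle (log2 change -0.56, SE 0.14, adjusted p = 0.011) and lost that call without Old_Ctrl 4.

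The MCM genes encode the ring-shaped helicase that is loaded onto origins in G1. Mcm3 stood at 29.7, 37.3, 39.0 and 45.0 CPM in Young_Ctrl, 29.8, 29.4, 32.3 and 30.6 CPM in Young_CL, 35.2, 30.5 and 34.6 CPM in Old_Ctrl and 18.5, 17.6, 19.1 and 16.7 CPM in Old_CL. The highest Old_CL library was at 19.1 CPM and the lowest of the others at 29.4 CPM, and the young groups overlapped only through Young_Ctrl 1. Mcm3 fell in aged mice (log2 change -0.89, SE 0.11, adjusted p = 4.2e-05) and in young mice (log2 change -0.32, SE 0.11, adjusted p = 0.024), and the fall was larger in aged mice (interaction -0.58, SE 0.16, adjusted p = 0.038). The interaction call was lost when any 1 of 10 libraries was left out (-0.67 to -0.48), and the young call without Young_Ctrl 3 or 4 or Young_CL 1 or 2 (-0.41 to -0.22). In aged mice the other MCM genes fell too, with log2 changes from -0.80 for Mcm2 to -0.26 for Mcm7, and Cdt1 fell by 0.77 on the log2 scale. In young mice Mcm2 (-0.24), Mcm5 (-0.31) and Mcm7 (-0.14) did not pass. The call of Mcm7 in aged mice was lost without Old_Ctrl 3, and part of its exons lies opposite Ap4m1 and Cops6, whose reads could not be kept apart if strand was not used in counting.

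Pcna, the clamp that holds polymerases on DNA in replication and repair, passed in no comparison. It stood at 48.8, 53.5, 58.8 and 61.6 CPM in Young_Ctrl, 45.4, 48.6, 57.7 and 43.9 CPM in Young_CL, 58.5, 47.2 and 58.7 CPM in Old_Ctrl and 45.5, 44.9, 50.1 and 42.6 CPM in Old_CL. All 4 groups overlapped. The log2 change with CL was -0.26 in aged mice (adjusted p = 0.079) and -0.20 in young mice (adjusted p = 0.15), and neither passed edgeR's test. Cdc45 had the reverse pattern of the MCM genes with which it forms the working helicase, at 7.36 ± 2.08 CPM in Young_Ctrl and 13.1 ± 1.88 CPM in Young_CL (log2 change 0.87, SE 0.19, adjusted p = 0.0018). The calls of its rise were kept when any 1 library was left out, at both ages, but not with the B cell and lymph node covariate, where the log2 change was 0.53 (adjusted p = 0.19) in young and 0.59 (adjusted p = 0.063) in aged mice. Without the muscle-rich libraries the rise passed in young mice (1.05, adjusted p = 0.021) and not in aged mice (0.63, adjusted p = 0.065). Gins2, which encodes another part of that helicase, passed in no comparison, and 70.7% of its exon bases lie opposite the gene Gse1.

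Ribonucleotide reductase makes the deoxynucleotides for DNA synthesis, and its small subunit gene Rrm2 is the one tied to S phase. Rrm2 stood at 11.2, 11.1, 12.9 and 16.9 CPM in Young_Ctrl, 13.9, 13.4, 14.1 and 17.7 CPM in Young_CL, 9.94, 8.25 and 10.1 CPM in Old_Ctrl and 5.85, 5.95, 6.85 and 5.45 CPM in Old_CL. The groups stepped down without overlap from the young libraries to Old_Ctrl and from there to Old_CL. It fell with CL in aged mice (log2 change -0.63, SE 0.16, adjusted p = 0.0054), was lower in aged mice under vehicle (log2 change -0.49, SE 0.16, adjusted p = 0.036) and under CL (log2 change -1.29, SE 0.15, adjusted p = 1.8e-05), and passed in the interaction (-0.80, SE 0.22, adjusted p = 0.039). When any 1 of 10 libraries was left out the interaction did not pass (-0.96 to -0.70), nor did age under vehicle without Young_Ctrl 3 or 4 or any 1 Old_Ctrl library (-0.56 to -0.33). Rrm1, the large subunit gene, stood at 35.9, 34.9, 38.8 and 45.7 CPM in Young_Ctrl, 37.9, 33.5, 38.8 and 36.8 CPM in Young_CL, 31.0, 32.4 and 31.9 CPM in Old_Ctrl and 28.3, 25.2, 29.2 and 26.6 CPM in Old_CL. Its libraries followed the same steps over a narrower range, with -0.42 between ages under CL (SE 0.09, adjusted p = 0.0019) and -0.22 with CL in aged mice (adjusted p = 0.078). Tyms, which encodes the thymidylate synthase that makes the DNA base precursor dTMP, rose in young mice from 7.04 ± 0.887 to 10.01 ± 1.30 CPM (log2 change 0.52, SE 0.14, adjusted p = 0.0057) and stood at 8.07 ± 1.29 and 7.24 ± 0.294 CPM in Old_Ctrl and Old_CL (-0.13, adjusted p = 0.48).

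The checkpoint kinase genes all fell with CL in aged mice. Bub1b, whose product BubR1 delays anaphase until chromosomes are attached, stood at 8.55, 11.0, 9.99 and 11.0 CPM in Young_Ctrl, 8.50, 9.31, 10.6 and 11.1 CPM in Young_CL, 10.4, 8.51 and 9.41 CPM in Old_Ctrl and 6.49, 6.58, 7.26 and 6.45 CPM in Old_CL. The Old_CL libraries were the 4 lowest of the 15, and the 3 other groups overlapped. It fell in aged mice (log2 change -0.48, SE 0.13, adjusted p = 0.0084), as did Bub1 (log2 change -0.90, SE 0.29, adjusted p = 0.021), a kinase of the same checkpoint, and Chek1 (log2 change -1.10, SE 0.33, adjusted p = 0.014), the kinase that halts the cycle when replication stalls. Chek1 was the least counted member, at 11 to 25 counts in the Old_CL libraries. Without Old_Ctrl 1 the calls of Bub1 and Chek1 were lost, that of Bub1 also without Old_CL 1, and the change of Bub1 was -0.56. Their interaction values of -1.22 for Chek1 (adjusted p = 0.10) and -1.18 for Bub1 (adjusted p = 0.079) did not pass.

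Cyclin A2, from Ccna2, works in S phase and G2, and cyclins B1 and B2 with Cdk1 drive entry into mitosis. Ccna2 stood at 11.7, 16.7, 21.6 and 21.1 CPM in Young_Ctrl, 26.4, 30.1, 22.2 and 22.6 CPM in Young_CL, 16.6, 13.9 and 18.8 CPM in Old_Ctrl and 9.84, 11.4, 12.0 and 10.01 CPM in Old_CL. Young_CL held the 4 highest libraries of the 15, and CL separated the groups without overlap at both ages, upwards in young and downwards in aged mice. It rose in young mice (log2 change 0.50, SE 0.17, adjusted p = 0.024), fell in aged mice (log2 change -0.59, SE 0.18, adjusted p = 0.015) and passed in the interaction (-1.10, SE 0.25, adjusted p = 0.018). Its rise did not pass without Young_Ctrl 2, Young_CL 1 or Young_CL 2 (0.36 to 0.61 over all 15 left-out fits), and its fall and interaction did not pass without Old_Ctrl 4. About 10.4% of its exon bases lie opposite Exosc9.

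Ccnb2 stood at 2.89, 5.07, 4.50 and 6.01 CPM in Young_Ctrl, 6.85, 6.85, 6.96 and 7.51 CPM in Young_CL, 7.49, 3.50 and 5.66 CPM in Old_Ctrl and 1.85, 3.32, 4.35 and 1.95 CPM in Old_CL. The young groups did not overlap, while Old_Ctrl 3 lay within the range of Old_CL. The change was 0.58 in young mice (SE 0.28, adjusted p = 0.11) and -0.86 in aged mice (SE 0.31, adjusted p = 0.031), and the interaction was -1.45 (SE 0.42, adjusted p = 0.047), the largest of the 38. In aged mice the call was lost without Old_Ctrl 1, Old_Ctrl 4, Old_CL 1 or Old_CL 4, with values from -1.16 to -0.63 over the 15 fits, and that of the interaction when any 1 of 11 libraries was left out (-1.74 to -1.21). Cdk1, the kinase at the centre of mitotic entry, rose in young mice from 6.29 ± 1.25 to 10.3 ± 1.54 CPM (log2 change 0.70, SE 0.24, adjusted p = 0.026) and stood at 7.35 ± 2.88 and 6.32 ± 1.29 CPM in the aged groups (-0.15, adjusted p = 0.64). The young call was lost without Young_Ctrl 1, 2 or 3 or Young_CL 2 or 3, with values from 0.62 to 0.84.

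Kinases of mitosis and genes of the spindle, the centromere and mitotic chromosomes were all lower in aged mice under CL, 11 of 11, with a median log2 difference of -1.19. Mki67 stood at 33.3, 43.3, 45.6 and 53.5 CPM in Young_Ctrl, 45.3, 41.9, 60.6 and 63.3 CPM in Young_CL, 39.2, 29.9 and 33.9 CPM in Old_Ctrl and 20.4, 18.9, 22.0 and 19.6 CPM in Old_CL. The Old_CL libraries were the 4 lowest, with the highest of them at 22.0 CPM and the next library, Old_Ctrl 3, at 29.9 CPM. Mki67 fell with CL in aged mice (log2 change -0.75, SE 0.16, adjusted p = 0.0018), did not pass in young mice (0.25, adjusted p = 0.19), and passed in the interaction (-0.998, SE 0.22, adjusted p = 0.016). Between ages it differed by -1.37 under CL (SE 0.15, adjusted p = 1.2e-05) and by -0.37 under vehicle (SE 0.16, adjusted p = 0.096). With the B cell and lymph node covariate the fall in aged mice was -0.58 (adjusted p = 0.026) and the interaction -1.06 (adjusted p = 0.011), and without the muscle-rich libraries they were -0.89 (adjusted p = 0.0053) and -1.39 (adjusted p = 0.041). With Old_CL 1, 2 and 4 summed they were -0.71 (adjusted p = 0.022) and -0.96 (adjusted p = 0.10), so that the interaction no longer passed.

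Top2a, which encodes the topoisomerase that untangles replicated chromosomes, stood at 19.3, 29.9, 31.7 and 37.5 CPM in Young_Ctrl, 31.6, 31.5, 34.5 and 38.7 CPM in Young_CL, 28.5, 19.1 and 22.5 CPM in Old_Ctrl and 12.1, 11.5, 14.9 and 11.8 CPM in Old_CL. Old_CL again held the 4 lowest libraries, and the 2 young groups overlapped. It fell in aged mice (log2 change -0.87, SE 0.18, adjusted p = 0.0015), was 0.19 in young mice (adjusted p = 0.38), and its interaction of -1.06 passed (SE 0.25, adjusted p = 0.021). That call was lost without Old_Ctrl 1, Old_Ctrl 4 or Old_CL 2 (-1.19 to -0.91 over the 15 fits). Tpx2, which activates Aurora A on the spindle, stood at 6.58, 7.31, 11.0 and 10.8 CPM in Young_Ctrl, 10.7, 10.8, 11.9 and 13.8 CPM in Young_CL, 10.5, 6.49 and 8.88 CPM in Old_Ctrl and 5.49, 4.20, 6.44 and 4.34 CPM in Old_CL. Its aged groups came close without overlap, with Old_Ctrl 3 at 6.49 CPM and Old_CL 3 at 6.44 CPM. Tpx2 fell in aged mice (log2 change -0.71, SE 0.22, adjusted p = 0.014), a call lost without Old_Ctrl 1, and did not pass in young mice (0.38, adjusted p = 0.13), with an interaction of -1.09 (SE 0.29, adjusted p = 0.037) that was lost when any 1 of 9 libraries was left out (-1.27 to -0.95).

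Birc5, which encodes survivin, a part of the chromosomal passenger complex, stood at 5.52, 6.71, 8.06 and 7.74 CPM in Young_Ctrl, 10.6, 11.2, 10.6 and 9.78 CPM in Young_CL, 8.50, 4.03 and 6.83 CPM in Old_Ctrl and 4.35, 2.82, 5.64 and 3.84 CPM in Old_CL. Every Young_CL library was above every other library, and the aged groups overlapped. Birc5 rose in young mice (log2 change 0.58, SE 0.22, adjusted p = 0.045), did not pass in aged mice (-0.56, adjusted p = 0.069) and passed in the interaction (-1.14, SE 0.33, adjusted p = 0.048). The young call stood near the threshold and was lost when any 1 of 11 libraries was left out, and that of the interaction when any 1 of 12 was (-1.41 to -0.93). Cenpf, a kinetochore protein gene, stood at 3.29, 4.38, 5.43 and 5.45 CPM in Young_Ctrl, 5.30, 7.16, 8.45 and 9.05 CPM in Young_CL, 5.48, 3.03 and 3.79 CPM in Old_Ctrl and 2.64, 2.51, 2.91 and 2.45 CPM in Old_CL. Young_CL 1 lay within the young vehicle range and the other Young_CL libraries above it, and Old_CL was below Old_Ctrl without overlap. Cenpf rose in young mice (log2 change 0.65, SE 0.21, adjusted p = 0.022), was -0.57 in aged mice (adjusted p = 0.059), and had an interaction of -1.22 (SE 0.32, adjusted p = 0.032). The young call was lost without Young_Ctrl 1 or 2 or Young_CL 3 or 4 (0.53 to 0.80), and the interaction when any 1 of 8 libraries was left out (-1.40 to -1.01).

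Of the other members of this role, Aurkb, Plk1, Kif11 and Kif23 fell with CL in aged mice, with log2 changes from -0.84 for Kif23, a motor of cell separation, to -0.49 for Kif11. Plk1 and Aurkb encode kinases that act from spindle assembly to cell separation. Their calls were lost without Old_Ctrl 1 for Aurkb (-0.43), Plk1 (-0.53) and Kif23 (-0.65) and without Old_Ctrl 4 for Kif11 (-0.41). Aurka, which encodes the kinase of the spindle poles, and Cenpe, a kinetochore motor gene, passed in neither CL comparison.

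Mitotic exit rests on the anaphase-promoting complex, of which Cdc20 encodes an activator and Ube2c a ubiquitin-conjugating enzyme. Cdc20 stood at 4.74, 6.45, 6.83 and 6.68 CPM in Young_Ctrl, 5.90, 7.64, 7.46 and 6.22 CPM in Young_CL, 6.05, 6.08 and 6.30 CPM in Old_Ctrl and 2.85, 2.63, 4.61 and 2.95 CPM in Old_CL. The 4 Old_CL libraries were the lowest, Old_CL 3 being the nearest to the rest. Cdc20 fell in aged mice (log2 change -0.89, SE 0.19, adjusted p = 0.0019) and passed in the interaction (-1.01, SE 0.27, adjusted p = 0.033), the latter call being lost when any 1 of 8 libraries was left out (-1.25 to -0.91). Ube2c stood at 6.58, 7.56, 6.25 and 7.07 CPM in Young_Ctrl, 9.20, 11.4, 11.1 and 9.86 CPM in Young_CL, 9.37, 3.89 and 7.36 CPM in Old_Ctrl and 5.71, 5.58, 7.14 and 6.28 CPM in Old_CL. The young groups did not overlap, and Old_Ctrl spanned the range of Old_CL and beyond on both sides. Ube2c rose in young mice (log2 change 0.59, SE 0.20, adjusted p = 0.027) and did not pass in aged mice (-0.09, adjusted p = 0.77). That rise was lost without Young_Ctrl 3 or 4 or Young_CL 2 or 3 (0.53 to 0.65). Of its exon bases 22.8% lie opposite the muscle gene Tnnc2. Without the muscle-rich libraries the change in young mice was 0.51 (adjusted p = 0.12, edgeR) and did not pass, and the part of Tnnc2 reads in it was not tested.

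**Figure D4:**
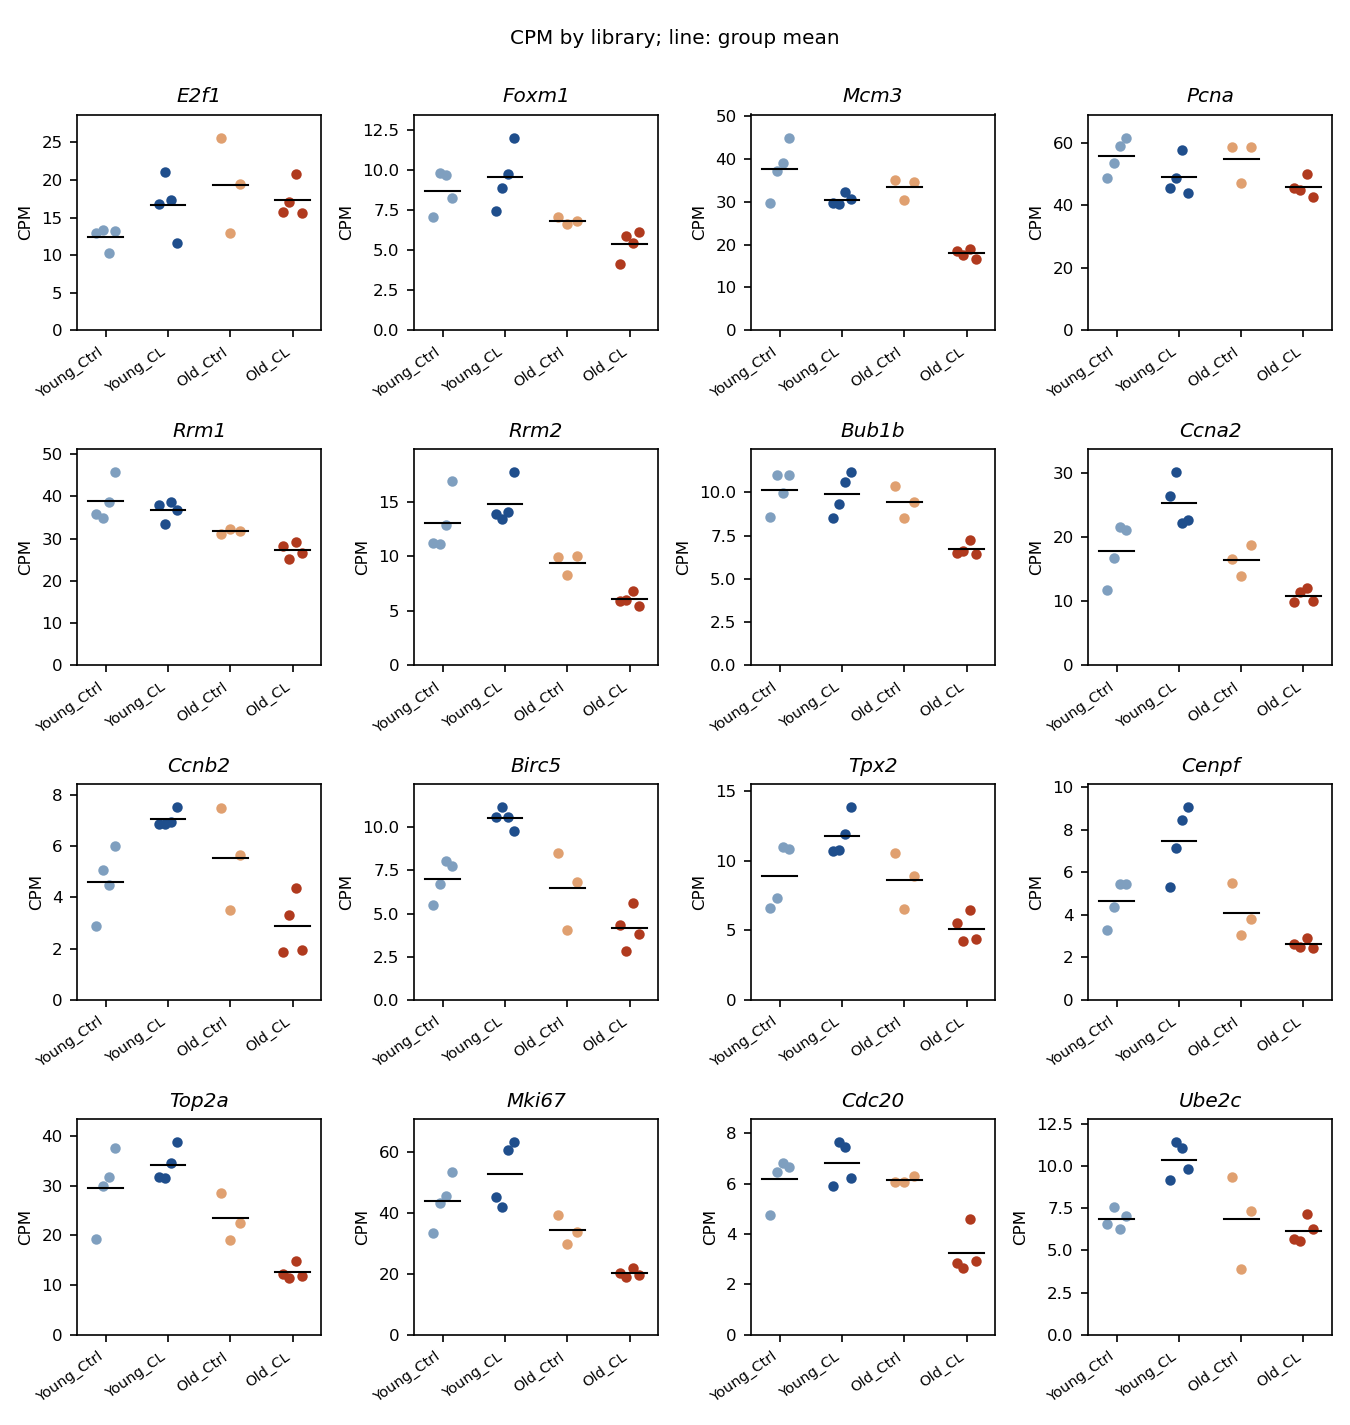
CPM of the 16 members whose values are given per library, 1 panel each with the vertical axis from 0; points are libraries and horizontal lines group means. For Mcm3, Bub1b, Top2a and Mki67 the Old_CL points lie below all others, for Ccna2 and Birc5 the Young_CL points lie above all others, and Pcna and E2f1 show no such separation.

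The changes can also be described as a balance between roles. This uses the same genes and libraries as the calls above and is not separate evidence. Within each library, the mean log2 CPM of 15 mitotic members (the cyclin and Cdk1 role and the spindle role) was set against that of the 6 MCM genes, a difference from which the scaling of the library drops out apart from the prior count. It was -2.14 ± 0.06 in Young_Ctrl (-2.19 to -2.07), -1.50 ± 0.07 in Young_CL (-1.57 to -1.42), -2.05 ± 0.24 in Old_Ctrl (-2.33 to -1.90) and -2.00 ± 0.19 in Old_CL (-2.10 to -1.71). Every Young_CL library lay above every other library, and the other groups overlapped. The deviations of members from their group means were also compared library by library. Over the 15 libraries, the correlation of these deviations had a median of 0.65 over 6 pairs of the cyclin and Cdk1 role, 0.63 over 55 pairs of the spindle role, and 0.19 over 55 pairs of the licensing and helicase role. For all 703 pairs of members the median was 0.40. These pairs share libraries and depth, and the values are a description.

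Cell type markers also differed between the groups, in part in another direction than these genes. Of all tested genes, 22.1% fell and 21.7% rose with CL in young mice, and 22.2% fell and 23.1% rose in aged mice. The T cell list fell with CL at both ages, 11 of 11 markers in each, and its summed level was 854 to 1588 CPM in Young_Ctrl, 643 to 738 in Young_CL, 640 to 738 in Old_Ctrl and 212 to 347 in Old_CL. The B cell and lymph node list fell in 10 of 10 markers in young and 7 of 10 in aged mice, with sums of 1475 to 2034 CPM in Young_Ctrl, 844 to 1233 in Young_CL, 490 to 1024 in Old_Ctrl and 448 to 592 in Old_CL. In young mice both lists were lower after CL, while 7 members rose and Cdt1, Mcm3, Mcm4 and Mcm6 fell. With the B cell and lymph node covariate 0 of these 11 calls passed, and fewer of all tested genes passed as well. Germinal centre B cells divide rapidly, and of 7 markers for them 6 fell in aged mice. In young mice 0 passed, with 0 at an unadjusted p under 0.05 in edgeR, while limma-voom passed 2 lower and DESeq2 none, with 2 lower at an unadjusted p under 0.05. Their sums were 19.2 to 24.3 CPM in Young_Ctrl, 13.6 to 29.0 in Young_CL, 26.4 to 37.8 in Old_Ctrl and 12.8 to 17.8 in Old_CL. No marker of these 3 lists was at 0 in all libraries of a group.

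Stromal progenitor markers fell in 7 of 9 cases in aged mice, beside 22.2% of all tested genes. Their sums were 2981 to 3199 CPM in Old_Ctrl and 1202 to 1379 CPM in Old_CL. Macrophage markers fell in 6 of 10 cases, with sums of 1688 to 3013 CPM in Old_Ctrl and 1000 to 1501 CPM in Old_CL. In young mice 2 progenitor markers fell and 1 rose, 33.3% of the list beside 43.9% of all tested genes. Their sums were 1687 to 2133 CPM in Young_Ctrl and 643 to 2119 CPM in Young_CL, where Young_CL 4 was the low library. Adipocyte markers rose, 6 of 8 in young and 7 of 8 in aged mice. In aged mice their sums were 18344.5 to 26982 CPM in Old_Ctrl and 38309 to 51025 CPM in Old_CL. The median log2 change with CL in aged mice was -1.32 for progenitor, -1.18 for macrophage and -1.12 for T cell markers. It was -1.36 for germinal centre, -0.65 for B cell and lymph node, 0.13 for endothelial and 1.13 for adipocyte markers. That of the 38 members was -0.57. Of 8 endothelial markers, 1 rose and 0 fell at each age (12.5%), beside 43.9% of all tested genes that passed in young and 45.2% in aged mice. Between ages under vehicle, all 10 B cell and lymph node and 9 of 11 T cell markers were lower in aged mice. There 7 of 10 macrophage markers were higher, and of 9 progenitor markers 4 were higher and 1 lower. Of all tested genes 15.1% were higher and 12.2% lower there. Between ages under CL, all 11 T cell, all 10 B cell and lymph node and 4 of 7 germinal centre markers were lower in aged mice (median of the last list -1.34). Of 9 progenitor markers 2 were lower, and of 10 macrophage markers 3 were higher, beside 19.4% of all tested genes lower and 20.5% higher. The part of these cell types in the changes of the proliferation genes was not tested. The fits with the B cell and lymph node covariate cannot test it, because that covariate itself differed between the groups. The mean log2 CPM of its markers was 6.96 to 7.43 in Young_Ctrl and 6.18 to 6.73 in Young_CL. In Old_Ctrl it was 5.39 to 6.45 and in Old_CL 5.22 to 5.61.

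**Figure D5:**
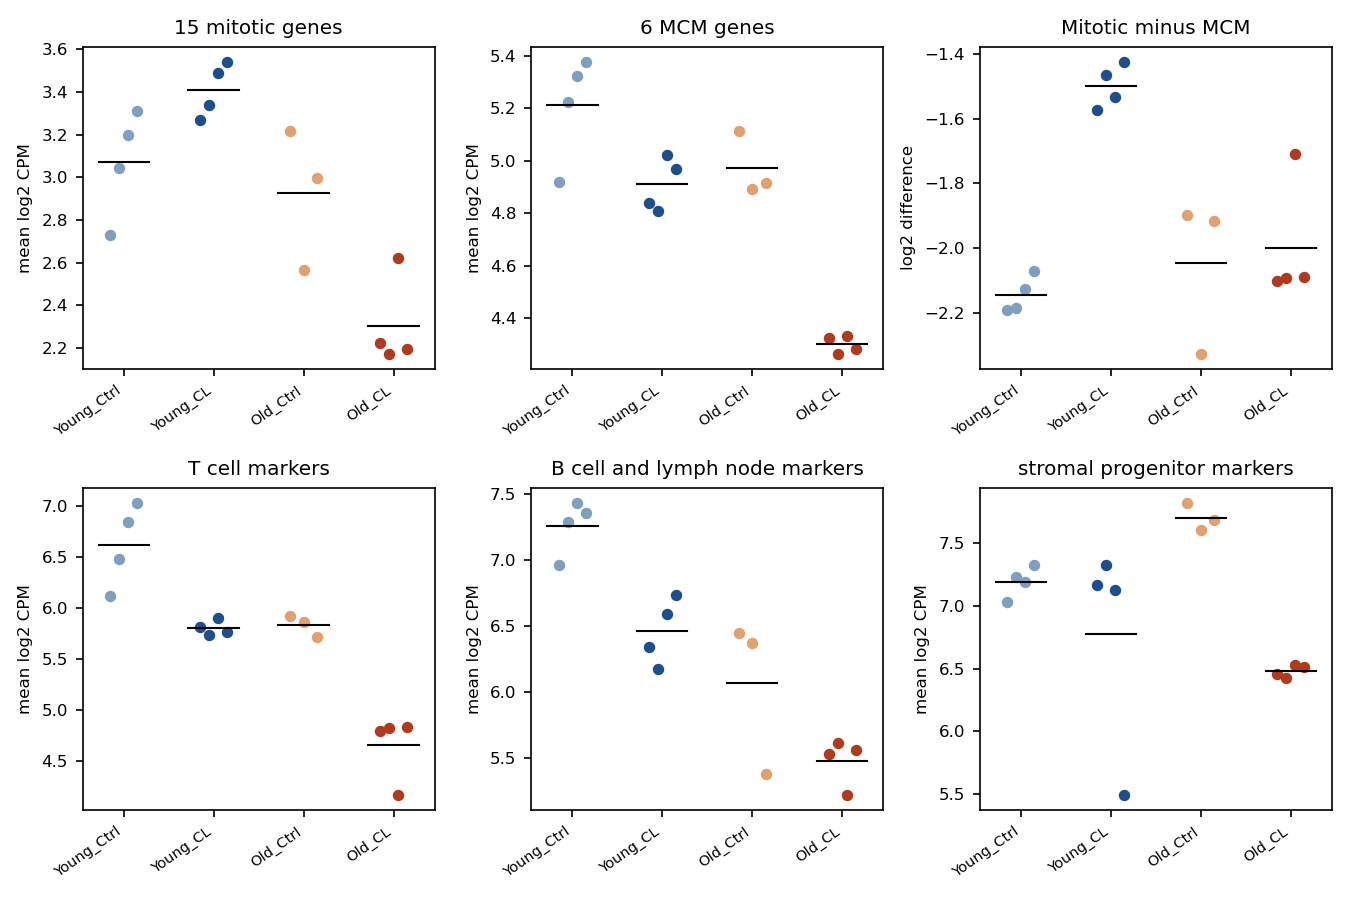
Mean log2 CPM per library of 15 mitotic members, 6 MCM genes, their difference, and the T cell, B cell and lymph node, and stromal progenitor markers, 1 panel each; points are libraries and lines group means. The Young_CL points are highest for the difference and lie below Young_Ctrl for T cell and B cell markers, and the Old_CL points are lowest for MCM genes and T cell markers.

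Genes of the same processes outside the list were counted from 3 further lists. Of 35 other mitosis genes, 3 rose and 1 fell with CL in young mice and 0 rose and 16 fell in aged mice, and 29 were lower and 0 higher in aged mice under CL. These are 11.4%, 45.7% and 82.9% of the list, beside 43.9%, 45.2% and 40.0% of all tested genes. None of edgeR, DESeq2 and limma-voom had a higher one in these last comparisons at an unadjusted p under 0.05, and with limma-voom 11 fell in aged mice. In young mice the risers were Prc1, which bundles the central spindle (log2 change 0.81, adjusted p = 0.0024), Pbk (0.93, adjusted p = 0.017) and Spc24, a kinetochore gene (0.55, adjusted p = 0.037), and the condensin gene Smc4 fell (-0.73, adjusted p = 0.0045). In aged mice the smallest p was that of Hmgb2, a chromatin protein gene (-0.90, SE 0.10, adjusted p = 1.4e-05), followed by Racgap1 (-1.001, adjusted p = 0.00038) and Espl1 (-0.91, adjusted p = 0.00077), which act in cell separation and in chromosome separation. Hmgb2, Prc1, Espl1 and Racgap1 were among the 6 that passed in the interaction, all lower, with -0.71, -1.24, -1.01 and -0.92. The 6 are 17.1% of the list, beside 7.08% of all tested genes.

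Of 26 other replication genes, 4 rose and 5 fell in young mice, and 2 rose and 16 fell in aged mice. These are 34.6% and 69.2% of the list, beside 43.9% and 45.2% of all tested genes. Gins4, which encodes a subunit of the same helicase as Cdc45, rose at both ages, by 0.42 (SE 0.08, adjusted p = 0.00061) in young and 0.59 (SE 0.08, adjusted p = 8.1e-05) in aged mice. The ligase gene Lig1 (-0.70), the maintenance methylation factor Uhrf1 (-0.80) and the clamp loader gene Rfc5 (-0.68) fell in aged mice. Under CL, 16 of the 26 were lower in aged than in young mice and 1 was higher, with Uhrf1 at -1.36 (SE 0.14, adjusted p = 5.9e-06). Together they are 65.4% of the list, beside 40.0% of all tested genes.

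Of 23 genes for G1 entry and its brakes, 3 rose and 7 fell in young mice and 5 rose and 9 fell in aged mice. These are 43.5% and 60.9% of the list, beside 43.9% and 45.2% of all tested genes, so that the young share was near that of all genes. Ccnd1, the cyclin D1 gene that answers growth signals, stood at 72.1 ± 8.66 CPM in Old_Ctrl and 40.5 ± 2.89 CPM in Old_CL (log2 change -0.82, SE 0.10, adjusted p = 2.6e-05). In young mice its means were 64.7 ± 3.19 and 68.5 ± 6.26 CPM, and its interaction of -0.91 passed (SE 0.13, adjusted p = 0.0024). Ccnd2, a second D-type cyclin, rose in aged mice (0.53, SE 0.12, adjusted p = 0.0021). Myc fell at both ages, by 0.56 in young and 0.69 in aged mice on the log2 scale. Cdkn1a, which encodes the cycle brake p21, rose with CL in young mice from 23.3 ± 3.27 to 50.4 ± 3.58 CPM (log2 change 1.11, SE 0.15, adjusted p = 4.2e-05), the smallest p of its list there. It stood at 58.6 ± 17.6 CPM in Old_Ctrl and 60.9 ± 7.11 CPM in Old_CL, and was higher in aged than in young mice under vehicle (1.33, SE 0.16, adjusted p = 0.00017). Its interaction of -1.06 passed (SE 0.22, adjusted p = 0.012).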

How the data were processed

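RNA sequencing of inguinal fat gave 1 deposited table of whole-number read counts per gene, which the authors made with STAR and featureCounts of Subread on mm9, per the submitters' processing notes. Versions, strand setting and treatment of reads shared by near-identical genes are not given in the sources used here. All 15 libraries carry the same run and lane code in their descriptions. The counts were tested with edgeR's quasi-likelihood test (edgeR 4.0.16, limma 3.58.1, R 4.3.3): filterByExpr, TMM factors, a mean for each of 4 groups over all 15 libraries, robust dispersions and Benjamini-Hochberg adjustment over all 15288 tested genes at 0.05. The age by CL interaction is the aged change minus the young change. Standard errors are the log2 change divided by the root of F. CPM use TMM-scaled library sizes, and log2 CPM a prior count of 2. CPM are not divided by gene length, so levels are not compared between genes. The scripts were tested on simulated data.

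Alternatives were DESeq2 1.42.0, limma-voom, RLE and upper-quartile factors, other filters, a replicate block, each library left out, Old_CL 1, 2 and 4 summed, the 5 muscle-rich libraries left out, a B cell and lymph node score as covariate, and fits of the 2 groups compared. Genes named with a value in every library were, for each role, the most counted member and the one with the smallest p for CL in aged mice, and each member that passed in the interaction. From the wider lists, the named genes came from the 4 with the smallest p among those that passed in a comparison, and their values elsewhere were added. Other members are named by their calls. Cdc45, Tyms, Cdk1, Kif11, Bub1 and Chek1 were given more room after their values were seen. Members and lists were chosen with earlier results of these data known. Promoter sequences and motif searches used RefSeq, GRCm38.p6, and exon overlaps the GENCODE annotation of that assembly. The counts are on mm9, and no coordinate was converted.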

Additional observations from a re-analysis of the deposited data

Results flagged for a closer look

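In 10 of 114 groups of 4 libraries, 1 library lay far from the other 3 of its group for a proliferation gene (Dixon's criterion). The 114 cases share the same libraries, and the genes vary together, so this count is a description. The rate over all tested genes was not determined. Old_CL 3 stood above the other Old_CL libraries for 4 genes: Aurka at 5.85 CPM (others 3.07 to 3.35), Kif11 at 5.44 CPM (others 4.11 to 4.26), Cdc20 at 4.61 CPM (others 2.63 to 2.95) and Bub1b at 7.26 CPM (others 6.45 to 6.58). The other 3 Old_CL libraries are the ones that were closest to each other over all genes, and Old_CL 3 is the muscle-rich library of its group. Young_CL 4, the only Young_CL library poor in muscle transcripts and the one lowest in stromal progenitor markers, stood above its group for Rrm2 at 17.7 CPM (others 13.4 to 14.1), Bub1 at 5.09 CPM (others at 3.65), Ccnb2 at 7.51 CPM (others 6.85 to 6.96) and Aurkb at 7.92 CPM (others 6.59 to 6.79). Aurka was high in Young_CL 3 at 6.46 CPM (others 5.49 to 5.62), and E2f1 was low in Young_Ctrl 3 at 10.3 CPM (others 12.9 to 13.3).

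The interaction test passed for 10 genes in the main fit, with log2 differences, aged minus young, of -1.45 for Ccnb2, -1.22 for Cenpf, -1.14 for Birc5, -1.10 for Ccna2, -1.09 for Tpx2, -1.06 for Top2a, -1.01 for Cdc20, -0.998 for Mki67, -0.80 for Rrm2 and -0.58 for Mcm3. Of these calls 9 were lost without at least 1 of the libraries, and 0 passed with Old_CL 1, 2 and 4 summed.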

How the results depend on the processing

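The falls of Cdc20, Cdt1, Mcm2, Mcm3, Mcm4, Mcm5, Mcm6, Mki67, Rrm2 and Top2a with CL in aged mice, and the lower levels of Birc5, Ccna2, Cdc20, Cenpe, Cenpf, Kif11, Mcm3, Mki67, Rrm2, Top2a and Tpx2 in aged mice under CL, passed under every alternative run. No call in the other 3 comparisons did. The causes of the changes between settings below were not tested. The counts of members that passed, with each library left out in turn, ran from 5 to 12 for CL in young mice (11 with all libraries), 15 to 26 for CL in aged mice (22), 1 to 13 for the ages compared under vehicle (7), 28 to 30 for the ages compared under CL (30) and 1 to 15 for the interaction (10). Without the muscle-rich libraries they were 2 for CL in young mice, 2 for age under vehicle and 1 for the interaction. With the B cell and lymph node covariate they were 0 for CL in young mice, 12 for CL in aged mice, 0 for the ages under vehicle and 11 under CL. With Old_CL 1, 2 and 4 summed they were 12 for CL in aged mice, 3 for age under vehicle and 0 for the interaction. The groups compared, fitted alone, gave 1 for age under vehicle, and limma-voom gave 5 for the interaction.

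Libraries with the same replicate number did not deviate together (median correlation -0.01 over 21 pairs, of which 6 were over 0.1, and 0.01 over 63 pairs with different numbers), so the numbers were not taken as pairs. A fit with the replicate number as a block gave 9 members for CL in young mice, 20 for CL in aged mice, 4 for age under vehicle, 30 for age under CL and 4 for the interaction.

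Over all tested genes, CL in young mice gave 2974 calls without the muscle-rich libraries and 1838 with the covariate, against 6706. Age under vehicle gave 24 with the covariate and 1877 with the groups fitted alone, and 2450, 2606 and 1739 without Young_Ctrl 3, Young_Ctrl 4 and Old_Ctrl 4, against 4162. Age under CL gave 3818 with the summed library, 1869 without the muscle-rich libraries and 2184 with the covariate, against 6108. The interaction gave 1871 with DESeq2, 641 with the replicate block, 139 with the summed library and 203 without the muscle-rich libraries, and 431 (without Old_Ctrl 4) to 2070 (without Young_CL 4) with a library left out, against 1083.

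Directions turned for Mcm4 (0.0055) and Mcm5 (0.0857) in age under vehicle with the covariate, both of which had passed as lower, and in at least 1 setting for 47 of the 110 member results that had not passed, of which 0 passed after the turn. Among those given with a value they were E2f1 for CL in young mice without the muscle-rich libraries (-0.11), Mcm2 (0.0564) and Mcm5 (0.0062) for CL in young mice with the covariate, and Cdk1 (0.14) and Ube2c (0.21) for CL in aged mice with limma-voom. In aged mice Cdk1 also turned to 0.0708 without Old_Ctrl 1 and Ube2c to 0.16 without Old_Ctrl 1 and 0.0216 without Old_Ctrl 4, the lowest values with a library left out being -0.467 for Cdk1 and -0.405 for Ube2c. Members with fewest counts, such as Chek1, are limited by depth.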
